A study of Mus musculus with 18 samples.

Results

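The genes described here encode the proteins that take glucose into the cell, break it down to pyruvate and lactate, pass pyruvate to the mitochondrion, or divert glucose 6-phosphate into the pentose phosphate pathway. There were 35 of them among the 48023 genes of the count table, chosen by symbol from a list of 9 groups of enzymes and carriers, and all 35 passed the filter on low counts. They were measured by RNA sequencing in 1 immortalized line of brown preadipocytes, which the study's methods trace to the stromal vascular fraction of mouse brown fat. The cells received vehicle or FGF6, a secreted fibroblast growth factor, for 4, 8 or 24 h. Each of the 6 groups (vehicle at 4 h, FGF6 at 4 h, vehicle at 8 h, FGF6 at 8 h, vehicle at 24 h and FGF6 at 24 h) held 3 libraries, 18 in all. The labels do not say whether libraries of a group came from separate cultures, so every p-value here measures the spread between libraries, which may be technical. No glucose, lactate or enzyme activity was measured in these data, only RNA.

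Glucose enters most cells through carriers of the SLC2A family and is trapped by hexokinase as glucose 6-phosphate. Glycolysis carries it to pyruvate, which lactate dehydrogenase can reduce to lactate for export through monocarboxylate carriers of the SLC16A family, or which the mitochondrial pyruvate carrier and pyruvate dehydrogenase can send into the citric acid cycle. Pyruvate dehydrogenase kinases switch that last step off by phosphorylation. The pentose phosphate pathway makes NADPH in its oxidative branch and ribose 5-phosphate in its non-oxidative branch. Brown fat is known for a high rate of glucose uptake when it is activated, and growth factors are known to raise glucose use in dividing cells.

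Library totals lay between 24327816 and 33471980 counts, and 15071 genes were tested. Of 10 preadipocyte and stromal markers, 9 were detected, and Dlk1 was at 0 in all libraries. Their summed level, most of it Col1a1, lay between 3375 and 3620 CPM (counts scaled to a common library total) with vehicle and between 2120 and 2248 CPM with FGF6 at 4 h. At 8 h the ranges were 4686 to 4974 CPM and 2352 to 2556 CPM, and at 24 h 4426 to 4747 CPM and 841 to 900 CPM. Of 9 markers of mature brown adipocytes, 6 were detected in at least 1 library, and their sum (64.4 to 175 CPM over the 6 groups) was nearly all Fabp4. Dio2 and Lep were at 0 in all libraries, and Ucp1 was at 0 in all but the FGF6 libraries of 24 h, where its mean was 0.739 CPM. Of 6 blood and immune markers, 2 were detected, with Cd3e at 0 throughout, and their sum lay between 3.36 and 18.4 CPM. The endothelial, skeletal muscle and epithelial sums reached at most 5.65, 8.99 and 2.57 CPM, and the muscle precursor gene Myf5 was at 0 throughout. The lower stromal sum with FGF6 came mostly from Col1a1 and Pdgfrb, and not every marker on the list went with it. Cd34 was higher in the FGF6 libraries of 8 and 24 h, with means of 14.4 ± 0.685 against 10.5 ± 1.20 CPM at 8 h and 43.0 ± 3.37 against 16.5 ± 0.916 CPM at 24 h (mean ± SD, n = 3), while Thy1 differed little (55.7 ± 0.674 against 63.6 ± 0.522 CPM at 24 h). The sum was lower in every FGF6 comparison given here, and its part in them was not tested. In these bulk libraries, fewer cells of a type and less RNA per cell cannot be told apart.

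FGF6 against vehicle was compared at each time with a quasi-likelihood test in edgeR, and a gene was called at a Benjamini-Hochberg adjusted p (FDR) under 0.05. FGF6 moved most of the pathway by 24 h, with glucose uptake, glycolysis, lactate export and the pentose phosphate genes mostly higher. Mpc1 and Mpc2, genes of the mitochondrial pyruvate carrier, were lower, while Pdha1 and Pdhb of pyruvate dehydrogenase moved little. At 4 h, 10 of the 35 genes rose and 13 fell, while 28.6% and 34.2% of all tested genes did so. With factors from library sizes alone the same counts were 6 and 21, and with upper-quartile factors 7 and 17. The shares of all genes above came from the main scaling and are no baseline for these counts. Under the other scalings 9737 and 9617 of the 15071 tested genes were called in either direction, and the median of all genes was -0.15 and -0.11. Library sizes alone moved the median of all genes at 4 h by -0.10 on the log2 scale, so changes of that size at 4 h depend on the scaling. At 8 h, 15 rose and 13 fell, beside 32.4% and 38.4% of all genes. At 24 h, 23 rose and 8 fell, which was 65.7% and 22.9% of the 35, beside 35.9% and 37.9% of all genes. The median log2 fold change of the 35 was -0.03 at 4 h, -0.01 at 8 h and 0.39 at 24 h, and that of all tested genes was -0.05, -0.05 and -0.02.

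Most of these changes were small. With at least a 1.5-fold change required as well, 3 genes rose and 3 fell at 4 h, beside 9.70% and 13.7% of all genes. At 8 h the counts were 3 and 7, beside 13.8% and 19.6%. At 24 h they were 11 and 5, beside 15.3% and 23.0%. All 3 FGF6 libraries lay above all 3 vehicle libraries for 10 genes at 4 h, 16 at 8 h and 22 at 24 h, and below them for 13, 15 and 8 genes, while 66.2%, 73.8% and 74.8% of all tested genes separated the groups in either direction. The called shares of the 35 were 28.6% higher and 37.1% lower at 4 h, near those of all genes, and 42.9% and 37.1% at 8 h.

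**Figure D1:**
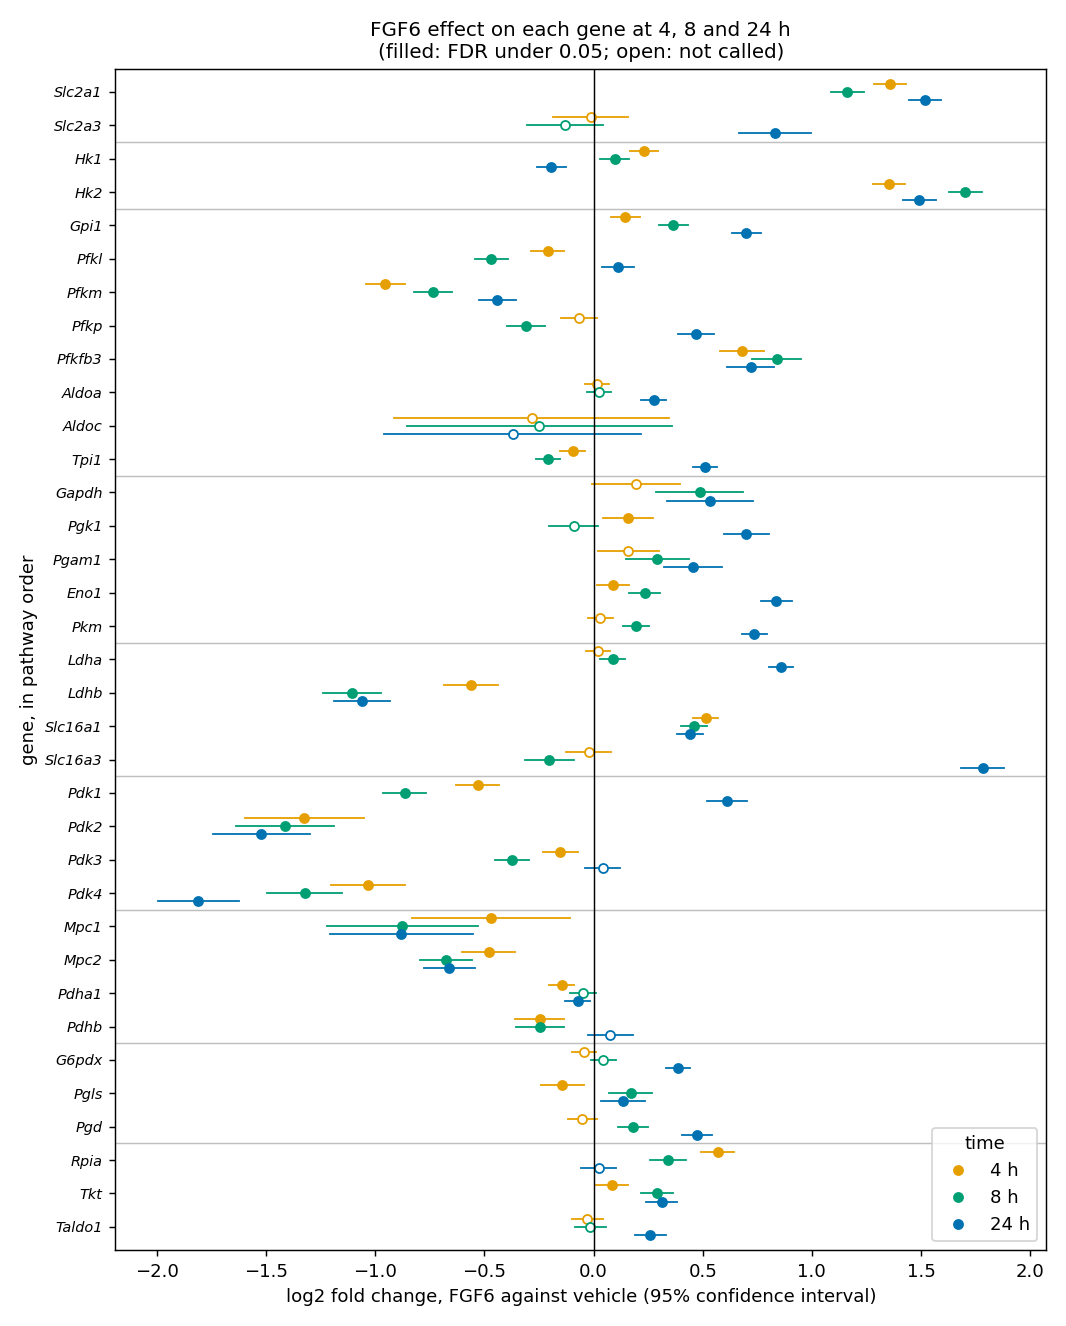
Log2 fold change of FGF6 against vehicle (horizontal axis) with its 95% confidence interval for each of the 35 genes in pathway order (vertical axis), at 4 h (orange), 8 h (green) and 24 h (blue). Filled points passed an FDR of 0.05 and open points did not. Slc2a1 and Hk2 are far to the right at all times, Pdk2 and Pdk4 far to the left, Pdk1 lies to the left at 4 and 8 h and to the right at 24 h, and Slc16a3 lies near 0 at 4 h, where its sign depends on the setting, and far to the right at 24 h.

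The promoters of 6 genes that carry the main changes are shown, Slc2a1 and Hk2 for the rise at every time, Ldha, Slc16a3 and Pdk1 for the rise at 24 h, and Pdk4 for the fall at every time. Each is the 300 bases from 250 before to 50 after a RefSeq start site on build GRCm38.p6, read 5′ to 3′ on the gene's strand, at the start site nearest to the annotated 5′ end of the gene. Capitals mark the core of the hypoxia response element, ACGTG or GCGTG on either strand. Slc2a1 lies at chr4:119108495-119108794 (+ strand), Hk2 at chr6:82774405-82774704 (- strand), Ldha at chr7:46845554-46845853 (+ strand), Slc16a3 at chr11:120948817-120949116 (+ strand), Pdk1 at chr2:71872974-71873273 (+ strand) and Pdk4 at chr6:5496229-5496528 (- strand).
Slc2a1: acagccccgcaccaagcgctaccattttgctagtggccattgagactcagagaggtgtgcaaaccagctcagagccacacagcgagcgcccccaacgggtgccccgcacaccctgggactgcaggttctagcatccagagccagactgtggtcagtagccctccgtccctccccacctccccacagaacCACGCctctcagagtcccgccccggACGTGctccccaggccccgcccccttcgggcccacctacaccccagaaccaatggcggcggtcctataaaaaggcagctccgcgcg
Hk2: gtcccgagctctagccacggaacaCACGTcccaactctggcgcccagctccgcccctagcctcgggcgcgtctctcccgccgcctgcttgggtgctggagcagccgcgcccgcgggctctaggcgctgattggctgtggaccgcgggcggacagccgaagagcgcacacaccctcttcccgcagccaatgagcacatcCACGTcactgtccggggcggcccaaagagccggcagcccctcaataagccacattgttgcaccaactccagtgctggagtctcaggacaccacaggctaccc
Ldha: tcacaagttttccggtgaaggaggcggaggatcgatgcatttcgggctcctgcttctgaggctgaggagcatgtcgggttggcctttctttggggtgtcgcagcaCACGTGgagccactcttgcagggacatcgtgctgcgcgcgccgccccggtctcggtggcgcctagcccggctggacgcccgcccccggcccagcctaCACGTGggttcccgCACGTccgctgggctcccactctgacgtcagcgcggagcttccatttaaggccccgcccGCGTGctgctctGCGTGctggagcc
Slc16a3: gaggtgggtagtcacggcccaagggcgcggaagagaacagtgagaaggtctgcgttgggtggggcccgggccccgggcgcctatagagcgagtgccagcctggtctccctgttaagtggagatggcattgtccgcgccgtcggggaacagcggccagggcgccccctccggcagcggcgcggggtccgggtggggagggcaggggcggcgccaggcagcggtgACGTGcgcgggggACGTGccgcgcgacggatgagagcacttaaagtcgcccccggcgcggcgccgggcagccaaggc
Pdk1: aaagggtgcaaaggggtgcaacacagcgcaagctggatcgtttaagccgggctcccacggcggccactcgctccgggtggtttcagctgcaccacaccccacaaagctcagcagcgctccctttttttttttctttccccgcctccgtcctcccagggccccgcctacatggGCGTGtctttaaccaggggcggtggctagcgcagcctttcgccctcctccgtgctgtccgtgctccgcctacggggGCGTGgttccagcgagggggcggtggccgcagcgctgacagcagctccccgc
Pdk4: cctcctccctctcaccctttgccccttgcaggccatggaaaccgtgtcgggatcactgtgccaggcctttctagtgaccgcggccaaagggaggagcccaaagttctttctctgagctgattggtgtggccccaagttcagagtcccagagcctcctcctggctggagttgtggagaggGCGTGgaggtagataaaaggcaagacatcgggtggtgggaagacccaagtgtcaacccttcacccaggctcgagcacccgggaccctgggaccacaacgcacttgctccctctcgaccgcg

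Of the 35 genes, 34 had an entry in the RefSeq promoter table, and the promoters of 29 of them (85.3%) held at least 1 core, while 14380 of all 32851 promoters (43.8%) did. Counted on each strand, so that the palindrome CACGTG gives 2, at least 2 cores were found in 19 of the 34 promoters and in 20.6% of all promoters. The Ldha promoter, whose RefSeq start site lies 4329 bases from the annotated 5′ end of the gene, held 7, counted on each strand, and the promoters of Slc2a1, Hk2, Slc16a3 and Pdk1 held 2 each. The E-box CACGTG, which contains ACGTG on both strands, was found in 4 of the 34 (11.8%) and in 7.15% of all promoters, among them 2 copies in Ldha. The full cyclic AMP element TGACGTCA was found in 1 of the 34 and in 1.79% of all promoters. The members' promoters were richer in G and C (median 62.2%, against 52.7% over all promoters), and the part of base composition in these shares was not tested. Shares of all promoters were taken over every entry of the promoter table, also for genes not tested here. Each of the 34 genes, in contrast, had 1 entry chosen, and the part of that choice was not tested either. The promoter of Pdk2 held 2 cores, both within 1 E-box, and that of Pdk4 held 1. The 5 promoters with no core were those of Hk1, Gpi1, Aldoa, Tpi1 and Pkm, of which all but Hk1 rose at 24 h. Slc16a1, which rose at every time, held 5, Pfkm, which fell at every time, held 3, and Pdha1 and Pdk3 held 4 each. A link between cores and the direction of change was not tested. A match describes letters and shows no binding.

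RNAs for glucose uptake and trapping were higher with FGF6, Slc2a1 and Hk2 at every time and Slc2a3 at 24 h. Slc2a1, which encodes the glucose carrier GLUT1, read 204, 203 and 213 CPM in the vehicle libraries and 525, 542 and 527 CPM in the FGF6 libraries at 4 h. At 8 h it read 137, 129 and 123 CPM with vehicle and 303, 286 and 282 CPM with FGF6. At 24 h it read 135, 138 and 130.3 CPM with vehicle and 384, 381 and 390.2 CPM with FGF6. No FGF6 library overlapped a vehicle library of its time, and the gene rose 2.57-fold, 2.24-fold and 2.87-fold. Its log2 fold change was 1.36 (SE 0.0375, adjusted p 2.55e-20) at 4 h, 1.16 (SE 0.0379, adjusted p 4.06e-19) at 8 h and 1.52 (SE 0.0381, adjusted p 1.07e-21) at 24 h. Slc2a3, which encodes the carrier GLUT3, read 7.72, 8.22 and 8.11 CPM with vehicle and 8.36, 7.24 and 8.33 CPM with FGF6 at 4 h, where the groups overlapped and the log2 fold change was -0.01 (adjusted p 0.911), with a sign that turned under several alternatives. It rose at 24 h, from 8.13, 7.99 and 6.60 to 13.2, 13.0 and 14.4 CPM, and the log2 fold change was 0.83 (SE 0.0836, adjusted p 1.84e-09). At 8 h its log2 fold change was -0.13 (adjusted p 0.187). Per length of transcript, Slc2a1 stayed far above Slc2a3, at 118 ± 1.45 FPKM (fragments per kilobase of transcript, scaled as CPM) against 3.43 ± 0.189 FPKM with FGF6 at 24 h (mean ± SD, n = 3).

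Hk2, the hexokinase isozyme that growth factors and insulin are known to raise, read 65.9, 66.0 and 66.8 CPM with vehicle and 167, 173 and 167 CPM with FGF6 at 4 h. The 8 h libraries read 35.5, 33.0 and 31.8 CPM with vehicle and 111, 109 and 107 CPM with FGF6. The 24 h libraries read 46.1, 47.6 and 45.7 CPM and 135, 130.3 and 127 CPM. The FGF6 libraries were all higher at each time, by 2.56-fold, 3.26-fold and 2.81-fold, with log2 fold changes of 1.35 (SE 0.0366, adjusted p 1.83e-20), 1.70 (SE 0.0393, adjusted p 3.52e-22) and 1.49 (SE 0.0382, adjusted p 1.64e-21). Vehicle cells lost Hk2 RNA between 4 and 8 h, with a log2 change of -0.99, and FGF6 cells lost less, -0.64, so the larger fold at 8 h went with a lower vehicle level and not with a higher FGF6 level. Hk1, the constitutive isozyme, moved little. Its log2 fold change was 0.23 (adjusted p 1.46e-06) at 4 h, 0.10 (adjusted p 0.0128) at 8 h and -0.19 (adjusted p 1.17e-05) at 24 h, so that it rose slightly early and fell slightly late. Its call at 8 h was lost without vehicle library 3 of 8 h, at 0.07 (adjusted p 0.0842), and also with library sizes alone (0.03, adjusted p 0.39) and upper-quartile factors (0.05, adjusted p 0.174).

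In upper glycolysis, 2 of 8 genes rose and 3 fell at 4 h, 2 rose and 4 fell at 8 h, and 6 rose and 1 fell at 24 h. The shares higher were 25%, 25% and 75%, beside 28.6%, 32.4% and 35.9% of all genes, and the shares lower 37.5%, 50% and 12.5%, beside 34.2%, 38.4% and 37.9%, so that at 4 h the group was near all genes. Pfkfb3, which encodes the enzyme that makes fructose 2,6-bisphosphate, an activator of phosphofructokinase, rose at each time. It read 20.7, 22.8 and 21.8 CPM with vehicle and 34.6, 33.7 and 36.5 CPM with FGF6 at 4 h. The 24 h libraries read 16.5, 17.1 and 17.6 CPM and 28.7, 28.4 and 27.2 CPM. The groups were apart at every time. The log2 fold change was 0.68 (SE 0.0523, adjusted p 2.29e-11) at 4 h, 0.84 (SE 0.0567, adjusted p 1.14e-12) at 8 h and 0.72 (SE 0.0555, adjusted p 1.18e-11) at 24 h. Gpi1, which encodes glucose 6-phosphate isomerase, rose by more at each later time, with log2 fold changes of 0.15, 0.37 and 0.70 (adjusted p 0.000638, 6.24e-10 and 1.07e-15), of which the first lost its call with library sizes alone (0.04, adjusted p 0.261). The isozymes of phosphofructokinase, the committing step of glycolysis, differed among themselves. Pfkm, the muscle form, fell from 66.3, 67.8 and 71.2 to 37.0, 33.9 and 35.1 CPM at 4 h. At 24 h it read 86.0, 92.6 and 91.0 CPM with vehicle and 64.8, 67.0 and 66.7 CPM with FGF6. The log2 fold change was -0.95 (SE 0.046, adjusted p 2.24e-15) at 4 h, -0.74 (SE 0.0439, adjusted p 9.19e-14) at 8 h and -0.44 (SE 0.0433, adjusted p 1.17e-09) at 24 h. Pfkl, the liver form, fell at 4 h (-0.21, adjusted p 3.09e-05) and 8 h (-0.47, adjusted p 4.52e-11) and was slightly higher at 24 h (0.11, adjusted p 0.0105). Pfkp, the platelet form, fell at 8 h (-0.31, adjusted p 8.45e-07) and rose at 24 h (0.47, adjusted p 3.16e-10), and its 4 h value was -0.07 (adjusted p 0.169), which passed as a fall with library sizes alone (-0.17, adjusted p 0.000904) and upper-quartile factors (-0.12, adjusted p 0.0107).

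Aldolase and triose phosphate isomerase RNAs rose at 24 h. Tpi1, which interconverts the triose phosphates, read 739, 755 and 722 CPM with vehicle and 639, 639 and 639.7 CPM with FGF6 at 8 h, where it fell (-0.21, adjusted p 3.91e-07). At 24 h it read 919, 968 and 948 CPM and 1331, 1349.8 and 1359 CPM and rose (0.51, adjusted p 1.39e-14). Its smaller fall at 4 h (-0.10, adjusted p 0.00465) was lost without FGF6 library 3 of 4 h, at -0.06 (adjusted p 0.0831). Aldoa, the main aldolase, read 1079, 1106 and 1075 CPM with vehicle and 1293, 1306 and 1345 CPM with FGF6 at 24 h and rose (0.27, adjusted p 3.54e-09). Its log2 fold changes at 4 and 8 h were 0.02 (adjusted p 0.649) and 0.03 (adjusted p 0.444), with the sign turning negative under library sizes alone, where the 4 h value passed as a fall (-0.09, adjusted p 0.0108), and under upper-quartile factors. Without FGF6 library 3 of 8 h, Aldoa passed the test at 8 h, at 0.09 (adjusted p 0.0203), and it passed by DESeq2 at 0.06 (adjusted p 0.0486). Aldoc, the brain aldolase, had about 1 CPM in all groups, from 0.569 to 1.77 CPM over the 18 libraries, and passed no test, with log2 fold changes of -0.28, -0.25 and -0.37 (adjusted p 0.463, 0.487 and 0.273).

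In lower glycolysis, 2 of 5 genes rose at 4 h, 4 at 8 h and 5 at 24 h, which was 40%, 80% and 100% beside 28.6%, 32.4% and 35.9% of all genes. With TMM factors 0 fell at any time by edgeR or limma-voom, or at an unadjusted p under 0.05 in edgeR, and 0 by DESeq2. With library sizes alone edgeR called a fall of Pkm at 4 h (-0.07, adjusted p 0.0478) and of Pgk1 at 8 h (-0.16, adjusted p 0.0143), and with upper-quartile factors of Pgk1 at 8 h (-0.14, adjusted p 0.0299). Pkm, which encodes the muscle pyruvate kinase gene with both its splice forms, not told apart in gene counts, rose at 8 and 24 h. At 24 h it read 1361, 1407 and 1331 CPM with vehicle and 2267, 2278 and 2285 CPM with FGF6, and the log2 fold change was 0.74 (SE 0.03, adjusted p 2.52e-17). Its log2 fold change at 8 h was 0.19 (adjusted p 2.65e-06), and at 4 h the value was 0.03 (adjusted p 0.38), a sign that turned negative under library sizes alone and upper-quartile factors. Without FGF6 library 3 of 4 h, Pkm passed the test at 4 h, at 0.09 (adjusted p 0.00775). Eno1, which encodes enolase, read 162, 169 and 163 CPM with vehicle and 295, 288 and 298 CPM with FGF6 at 24 h. Its log2 fold change was 0.84 (SE 0.0367, adjusted p 1.15e-16), after 0.23 (adjusted p 4.27e-06) at 8 h. Its call at 4 h (0.09, adjusted p 0.0437) was lost without FGF6 library 1 (0.09, adjusted p 0.0598), vehicle library 1 (0.07, adjusted p 0.13) or vehicle library 2 (0.09, adjusted p 0.0858) of 4 h, and also with upper-quartile factors (0.03, adjusted p 0.479) or with library sizes alone, where its sign turned. Pgk1, which encodes the kinase that makes the first ATP of the pathway, read 39.3, 42.3 and 41.8 CPM with vehicle and 72.9, 64.1 and 63.6 CPM with FGF6 at 24 h and rose (0.70, adjusted p 8.12e-12). At 4 h it was 0.16 (adjusted p 0.0204), lost without vehicle library 1 (0.10, adjusted p 0.144), with library sizes alone (0.06, adjusted p 0.391) and with upper-quartile factors (0.10, adjusted p 0.12). At 8 h it was -0.09 (adjusted p 0.154), a value that passed as a fall under those 2 scalings.

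Gapdh, often taken as a constant reference gene, read 54.3, 55.2 and 50.5 CPM with vehicle and 78.6, 81.0 and 72.2 CPM with FGF6 at 24 h and rose at 8 h (0.49, adjusted p 0.000165) and 24 h (0.53, adjusted p 4.06e-05). At 4 h the vehicle libraries were spread, at 40.1, 46.9 and 60.6 CPM, around the FGF6 libraries at 57.6, 57.2 and 53.6 CPM. The log2 fold change was then 0.19 (adjusted p 0.107), or 0.37 (adjusted p 0.0012) without vehicle library 3. It also passed with no filter on low counts (0.20, adjusted p 0.000176) and with libraries of that time alone (0.23, adjusted p 0.0433). Pgam1, which encodes phosphoglycerate mutase, rose at 8 h (0.29, adjusted p 0.000912) and 24 h (0.46, adjusted p 1.51e-06). At 4 h its value was 0.16 (adjusted p 0.0549), or 0.26 (adjusted p 0.00344) without FGF6 library 3 and 0.19 (adjusted p 0.0395) without vehicle library 3. Pgam1 also passed at 4 h by DESeq2 (0.18, adjusted p 0.0343). The same held with 10 counts required in every library (0.19, adjusted p 0.0227) and with libraries of that time alone (0.20, adjusted p 0.0367). At 8 h the vehicle libraries of Gapdh were spread as well, from 26.3 to 37.5 FPKM, below the FGF6 libraries at 43.5 to 45.4 FPKM. The levels of these genes, and with them their fold changes, are uncertain because they have near-identical copies in the genome. With vehicle at 24 h Gapdh read 37.6 ± 1.74 FPKM, beside 719 ± 11.4 FPKM for Aldoa. Of all 50-base words in the transcript, 82.5% for Gapdh, 72.2% for Eno1, 68.0% for Pgk1, 41.5% for Pgam1 and 34.4% for Pkm also occur in other annotated genes, which number 218 for Gapdh. The share was 30.3% for Pdhb, 27.0% for Ldhb, 19.3% for Gpi1, 16.6% for Ldha, 13.5% for Aldoa and 10.9% for Taldo1. The sources used here do not state how reads with several matches were counted, nor whether strand was used. Slc2a1, Hk1, Gpi1, Pfkp, Pdha1, Mpc1 and G6pdx overlap annotated genes on the opposite strand by at least 105 bases, and Pfkm, Pkm and Pgls on the same strand by at least 341, so reads in those stretches cannot be told apart. Eno1b, a copy of Eno1, held 34043 counts over the 18 libraries beside 87298 for Eno1. With the annotated copies added, the log2 fold change of Eno1 was 0.07 (adjusted p 0.0857) at 4 h and 0.82 at 24 h.

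**Figure D2:**
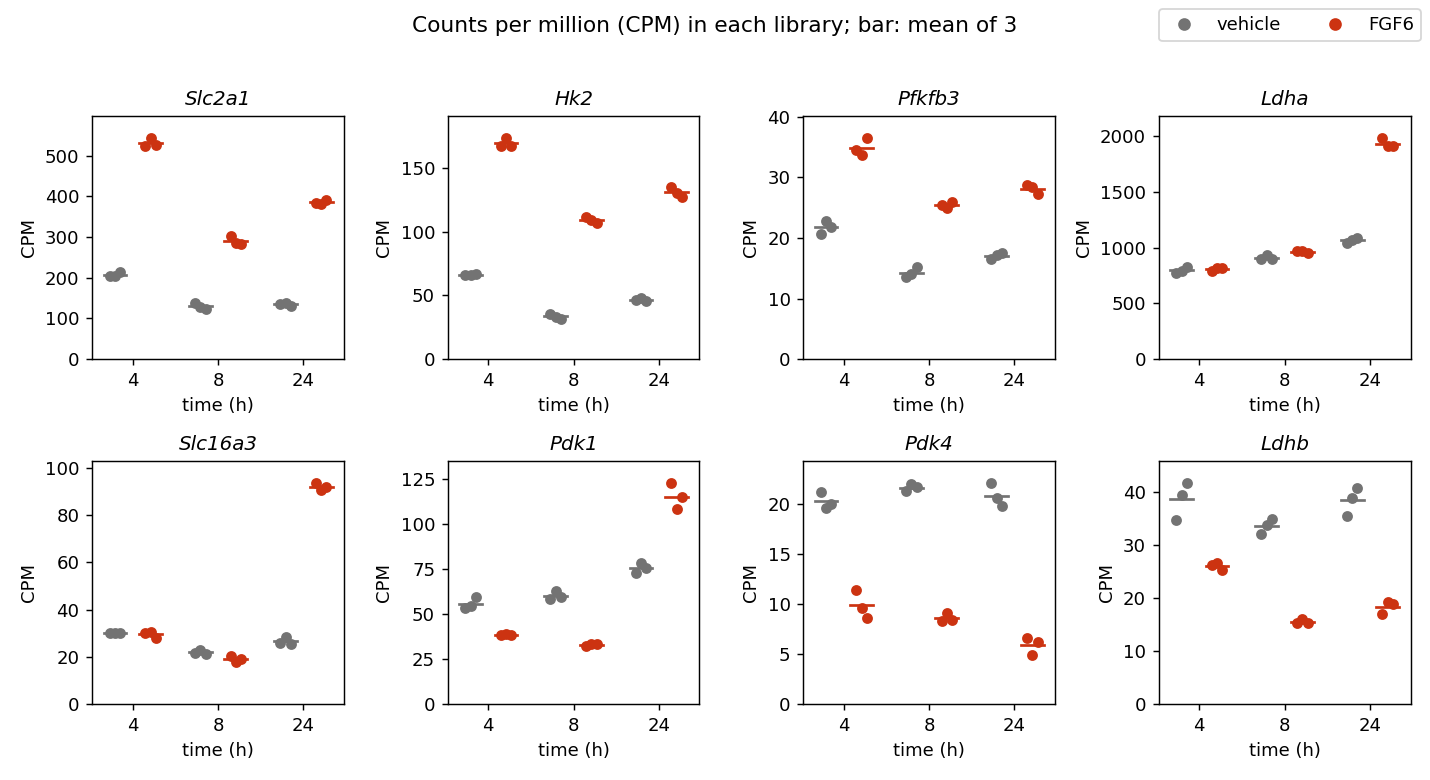
CPM (vertical axes, each from 0) of 8 genes in every library at 4, 8 and 24 h (horizontal axes), with vehicle in grey, FGF6 in red and bars at the mean of 3. Slc2a1, Hk2 and Pfkfb3 are higher with FGF6 at each time, Pdk4 and Ldhb are lower at each time, Ldha and Slc16a3 stand apart upward at 24 h, and Pdk1 lies below vehicle at 4 and 8 h and above it at 24 h.

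At the lactate end, Slc16a3 and Ldha rose mostly at 24 h, Slc16a1 rose at every time and Ldhb fell at every time. The rise of Slc16a3 at 24 h was the largest fold change upward of the 35 genes at any time. Slc16a3, which encodes the lactate exporter MCT4, read 30.3, 30.2 and 30.1 CPM with vehicle and 30.3, 30.6 and 28.0 CPM with FGF6 at 4 h. At 8 h it read 21.8, 22.9 and 21.2 CPM with vehicle and 20.5, 17.7 and 19.0 CPM with FGF6, and at 24 h 26.1, 28.5 and 25.5 CPM and 93.4, 90.8 and 91.9 CPM. The groups overlapped at 4 h, where the sign turned under several alternatives, the FGF6 libraries were slightly lower at 8 h, and they were 3.44-fold higher at 24 h. The log2 fold changes were -0.02 (SE 0.053, adjusted p 0.732), -0.20 (SE 0.0577, adjusted p 0.00296) and 1.78 (SE 0.0502, adjusted p 1.15e-20), and with library sizes alone the 4 h value passed as a fall (-0.12, adjusted p 0.0438). The effect at 24 h differed from that at 8 h by 1.99 (SE 0.0763, adjusted p 1.26e-16). Slc16a1, which encodes the carrier MCT1, rose at each time, with log2 fold changes of 0.51, 0.46 and 0.44 (adjusted p 1.23e-13, 7.23e-13 and 1.21e-12). Its effect at 24 h differed from that at 8 h by -0.02 (SE 0.043, adjusted p 0.772). Ldha, which encodes the subunit of lactate dehydrogenase that favours lactate, read 774, 791 and 828 CPM with vehicle and 794, 817 and 815 CPM with FGF6 at 4 h, overlapping. At 24 h it read 1043, 1068 and 1084 CPM and 1979.7, 1910.1 and 1906 CPM, wholly apart. Its log2 fold change was 0.09 (adjusted p 0.00818) at 8 h and 0.86 (SE 0.0283, adjusted p 3.05e-19) at 24 h. The 8 h call was lost with library sizes alone (0.02, adjusted p 0.434) and with upper-quartile factors (0.04, adjusted p 0.163). At 4 h it was 0.02 (adjusted p 0.575), with the sign turning negative under upper-quartile factors, without vehicle library 1 of 4 h and under library sizes alone, where it passed as a fall (-0.08, adjusted p 0.00719). Ldhb, the subunit of heart lactate dehydrogenase, read 32.1, 33.8 and 35.1 CPM with vehicle and 15.4, 16.2 and 15.2 CPM with FGF6 at 8 h, with the groups apart. The 24 h libraries read 35.5, 39.0 and 40.9 CPM with vehicle and 17.1, 19.2 and 18.9 CPM with FGF6, again apart. Its log2 fold changes were -0.56 (SE 0.0631, adjusted p 2.23e-08), -1.11 (SE 0.0681, adjusted p 1.67e-13) and -1.06 (SE 0.0664, adjusted p 1.81e-13).

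All 4 pyruvate dehydrogenase kinases fell at 4 and 8 h, and at 24 h Pdk2 and Pdk4 stayed low, Pdk1 was higher than with vehicle and Pdk3 did not pass the test. The share called lower was 100% at 4 and 8 h and 50% at 24 h, beside 34.2%, 38.4% and 37.9% of all genes. No kinase (0 of 4) rose at 4 or 8 h by edgeR, DESeq2 or limma-voom or at an unadjusted p under 0.05. Pdk4, known to rise in fasting and with fatty acid use, read 21.2, 19.6 and 20.0 CPM with vehicle and 11.5, 9.59 and 8.61 CPM with FGF6 at 4 h. At 8 h it read 21.3, 22.1 and 21.7 CPM and 8.37, 9.14 and 8.46 CPM, and at 24 h 22.1, 20.6 and 19.8 CPM and 6.67, 4.89 and 6.28 CPM. The FGF6 libraries were lower throughout, with log2 fold changes of -1.03 (SE 0.0871, adjusted p 1.25e-10), -1.32 (SE 0.0881, adjusted p 8.25e-13) and -1.81 (SE 0.095, adjusted p 4.74e-15). Pdk2, the widely expressed kinase, read 12.6, 13.6 and 13.6 CPM with vehicle and 4.78, 4.04 and 5.06 CPM with FGF6 at 24 h. Its log2 fold changes were -1.33 (SE 0.139, adjusted p 7.03e-09), -1.41 (SE 0.115, adjusted p 4.21e-11) and -1.52 (SE 0.114, adjusted p 6.22e-12). Its vehicle level itself rose between 4 and 8 h, by 0.95 on the log2 scale, and so did its FGF6 level, by 0.87. Pdk1, the kinase known as a target of the hypoxia-inducible factor, read 58.1, 62.8 and 59.5 CPM with vehicle and 32.4, 33.3 and 33.3 CPM with FGF6 at 8 h. By 24 h it read 72.6, 78.0 and 75.3 CPM and 122, 108 and 115 CPM. The groups did not overlap at either time but changed order. The log2 fold changes were -0.53 (SE 0.0499, adjusted p 9.62e-10) at 4 h, -0.87 (SE 0.0503, adjusted p 5.49e-14) at 8 h and 0.61 (SE 0.046, adjusted p 7.37e-12) at 24 h. Pdk3 fell by less, with -0.15 (adjusted p 0.00227) at 4 h and -0.37 (adjusted p 9.47e-09) at 8 h, and had 0.04 (adjusted p 0.363) at 24 h. Without FGF6 library 3 the 4 h call of Pdk3 was lost, at -0.10 (adjusted p 0.0591), and without vehicle library 3 its 24 h value passed, at 0.11 (adjusted p 0.0305).

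Of the 4 genes of mitochondrial pyruvate entry, 4 fell at 4 h, 3 at 8 h and 3 at 24 h, which was 100%, 75% and 75% beside 34.2%, 38.4% and 37.9% of all genes, and 0 rose at any time by edgeR, DESeq2 or limma-voom, or at an unadjusted p under 0.05. Mpc2, a subunit of the mitochondrial pyruvate carrier, read 42.6, 39.4 and 41.2 CPM with vehicle and 24.2, 26.0 and 27.7 CPM with FGF6 at 24 h. Its log2 fold changes of -0.48, -0.68 and -0.66 passed at each time (adjusted p 2.24e-07, 2.8e-10 and 2.53e-10). Mpc1, the partner subunit, read 5.04, 4.61 and 4.79 CPM with vehicle and 2.81, 2.89 and 2.13 CPM with FGF6 at 24 h. Its log2 fold changes were -0.47 (SE 0.185, adjusted p 0.0293), -0.88 (SE 0.177, adjusted p 0.000101) and -0.88 (SE 0.166, adjusted p 3.96e-05). At 4 h its groups overlapped, and the call was lost without FGF6 library 2 (-0.33, adjusted p 0.183), FGF6 library 3 (-0.47, adjusted p 0.0598), vehicle library 1 (-0.37, adjusted p 0.129) or vehicle library 3 (-0.38, adjusted p 0.118). The pseudogene Mpc1-ps held 838 counts over the 18 libraries beside 1555 for Mpc1, and 23.2% of the 50-base words of Mpc1 occur elsewhere. Pdha1 and Pdhb, which encode the subunits of the first enzyme of pyruvate dehydrogenase, moved little. Pdha1 had log2 fold changes of -0.15, -0.05 and -0.07 (adjusted p 0.000141, 0.149 and 0.0288), and at 8 h it passed with library sizes alone (-0.11, adjusted p 0.00181) and upper-quartile factors (-0.09, adjusted p 0.00708). Its 24 h call was lost without any 1 of the 6 libraries, down to -0.01 (adjusted p 0.741) without vehicle library 3. Pdhb fell at 4 h (-0.25, adjusted p 0.000522) and 8 h (-0.25, adjusted p 0.000323). It read 42.6, 45.0 and 41.7 CPM with vehicle and 46.3, 45.4 and 44.8 CPM with FGF6 at 24 h. The log2 fold change was then 0.08 (adjusted p 0.189), or 0.15 (adjusted p 0.0246) without vehicle library 2.

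In the oxidative branch of the pentose phosphate pathway, 1 of 3 genes fell at 4 h, 2 rose at 8 h and 3 rose at 24 h, and in the non-oxidative branch 2 of 3 rose at each time, beside the 28.6%, 32.4% and 35.9% of all genes that rose. At 4 h 34.2% of all genes fell, so that 1 fall of 3 was near the share of all genes. G6pdx, the gateway dehydrogenase that makes NADPH, read 209, 212 and 214 CPM with vehicle and 275, 279 and 274 CPM with FGF6 at 24 h. The log2 fold change was 0.39 (SE 0.0282, adjusted p 4.16e-12). At 4 and 8 h its values were -0.04 (adjusted p 0.199) and 0.05 (adjusted p 0.156), the latter 0.09 (adjusted p 0.0157) without FGF6 library 3. G6pdx also passed as a rise at 8 h by DESeq2 (0.08, adjusted p 0.00488). The same held with 10 counts required in every library (0.06, adjusted p 0.0361) and with libraries of that time alone (0.08, adjusted p 0.0237). Its sign at 8 h turned under library sizes alone, and its 4 h value then passed as a fall (-0.14, adjusted p 5.58e-05), as it did with upper-quartile factors (-0.10, adjusted p 0.00277). Pgd, the other NADPH-making dehydrogenase, read 263, 262 and 264 CPM and 361, 366 and 368 CPM at 24 h and rose at 8 h (0.18, adjusted p 6.49e-05) and 24 h (0.47, adjusted p 4.95e-12). Its 4 h value was -0.05 (adjusted p 0.215), a sign that turned without FGF6 library 3, and it passed as a fall with library sizes alone (-0.15, adjusted p 0.000624) and upper-quartile factors (-0.11, adjusted p 0.00986). Pgls, which encodes the lactonase between them, fell at 4 h (-0.14, adjusted p 0.0174) and rose at 8 h (0.17, adjusted p 0.00436) and 24 h (0.13, adjusted p 0.0194). The 8 h call was lost with library sizes alone (0.11, adjusted p 0.0757). Its 4 h call rested on FGF6 library 3, without which it was -0.05 (adjusted p 0.394), and at 24 h its groups overlapped, at 116, 114 and 103 CPM and 115, 119 and 131 CPM. Rpia, the isomerase that makes ribose 5-phosphate, rose early. Its vehicle libraries lay between 48.9 and 51.4 CPM, and its FGF6 libraries read 73.1, 74.8 and 74.8 CPM at 4 h, wholly apart. By 24 h it read 44.6, 46.5 and 46.1 CPM and 44.9, 47.9 and 46.7 CPM, overlapping. The log2 fold change was 0.57 (SE 0.0394, adjusted p 3.01e-12) at 4 h, 0.34 (SE 0.0418, adjusted p 7.86e-08) at 8 h and 0.02 (SE 0.0411, adjusted p 0.603) at 24 h. Tkt, which encodes transketolase, rose at 8 h (0.29, adjusted p 1.24e-07) and 24 h (0.31, adjusted p 3.27e-08). Its 4 h value of 0.08 (adjusted p 0.0493) lost its call without FGF6 library 1 (0.09, adjusted p 0.0591) or any 1 of the vehicle libraries, down to 0.08 (adjusted p 0.105) without vehicle library 3. It was also lost with upper-quartile factors (0.03, adjusted p 0.541), and its sign turned under library sizes alone. Taldo1, which encodes transaldolase, rose at 24 h (0.26, adjusted p 3.83e-07) and had -0.03 (adjusted p 0.523) at 4 h and -0.01 (adjusted p 0.729) at 8 h, with signs that turned under several alternatives. Its 4 h value passed as a fall with library sizes alone (-0.13, adjusted p 0.00417) and upper-quartile factors (-0.09, adjusted p 0.0468).

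Summed over the 16 genes from hexokinase to lactate dehydrogenase, these RNAs took 4911 ± 128 CPM with vehicle and 5014 ± 85.8 CPM with FGF6 at 4 h (mean ± SD, n = 3). The sums were 5037 ± 146 and 5182 ± 55.3 CPM at 8 h, and 6068 ± 123 and 8842 ± 37.8 CPM at 24 h. The FGF6 libraries stood clear of the vehicle libraries at 24 h alone, where the lowest FGF6 library had 8814 CPM and the highest vehicle library 6204 CPM. For the 6 pentose phosphate genes the sums were 1191 ± 8.08 and 1215 ± 37.6 CPM at 4 h, 1056 ± 26.2 and 1203 ± 10.6 CPM at 8 h, and 1237 ± 19.7 and 1557 ± 54.5 CPM at 24 h, with the groups apart at 8 and 24 h. Aldoa, Tpi1, Pkm and Ldha made up most of the glycolytic sum in every group. The levels of Gapdh, Eno1, Pgk1, Pgam1 and Pkm within it are uncertain because of their near-identical copies. These sums are descriptions with no test.

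**Figure D3:**
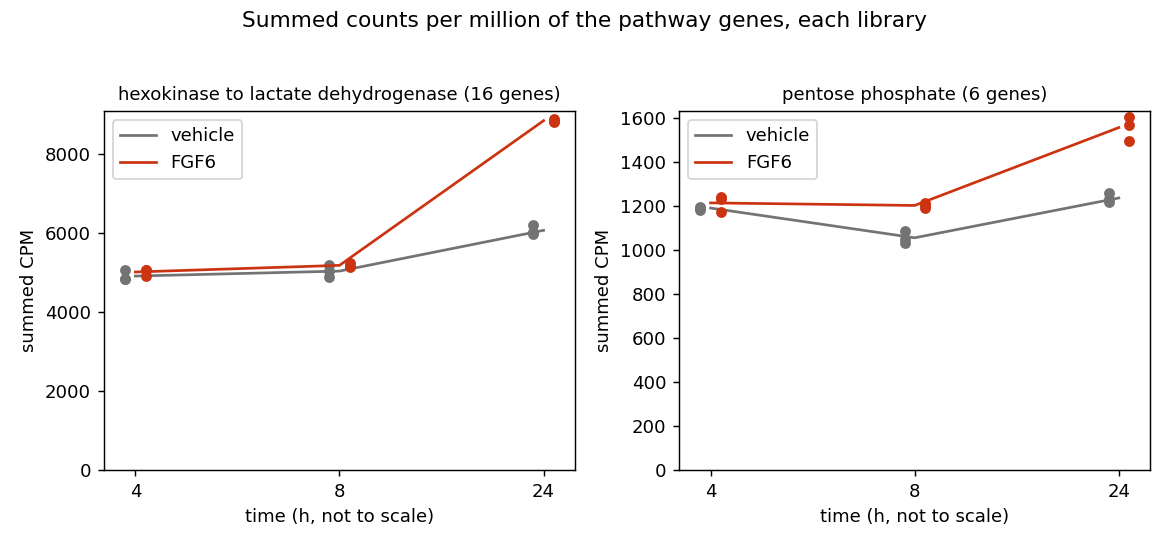
Summed CPM (vertical axes, from 0) of 16 glycolytic genes (left) and 6 pentose phosphate genes (right) in each library at 4, 8 and 24 h (horizontal axes, evenly spaced), with vehicle in grey, FGF6 in red and lines through the means. The glycolytic sums of the groups lie together at 4 and 8 h and part at 24 h, 6068 ± 123 CPM with vehicle against 8842 ± 37.8 CPM with FGF6.

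The make-up of the isozyme families changed as well. In FPKM from the principal transcript of each gene, Hk2 was 10.8% ± 0.121 of the hexokinase total with vehicle and 20.9% ± 0.214 with FGF6 at 4 h (SD in percentage points, n = 3), 7.17% ± 0.36 and 19.0% ± 0.529 at 8 h, and 7.33% ± 0.141 and 20.3% ± 1.01 at 24 h. Hk1 thus stayed the more abundant hexokinase RNA. Ldhb was 6.15% ± 0.358 of lactate dehydrogenase with vehicle and 4.19% ± 0.124 with FGF6 at 4 h, and 4.66% ± 0.234 and 1.28% ± 0.103 at 24 h. Slc16a3 was a smaller share of its pair with FGF6 at 4 h (11.7% ± 0.618, against 16.2% ± 0.325 with vehicle) and a larger one at 24 h (31.97% ± 0.383, against 15.6% ± 0.937). Among the kinases, Pdk3 was the most abundant by this measure in every group, Pdk1 went from 21.1% ± 0.726 with vehicle to 31.8% ± 1.38 with FGF6 at 24 h, and Pdk4 from 8.68% ± 0.645 to 2.44% ± 0.291. Pfkm fell from 14.5% ± 0.246 to 9.10% ± 0.509 of phosphofructokinase at 4 h. The shares themselves depend on the length used, and with all annotated exons the Hk2 share at 4 h was 19.9% with vehicle and 35.1% with FGF6. The direction of all 18 share differences (6 genes at 3 times) was the same under both lengths and from counts alone. For Hk2, Ldhb and Slc16a3 this was fixed in advance where the groups were apart. Each belongs to a pair of genes, in which another length only rescales the same ratio in every library.

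**Figure D4:**
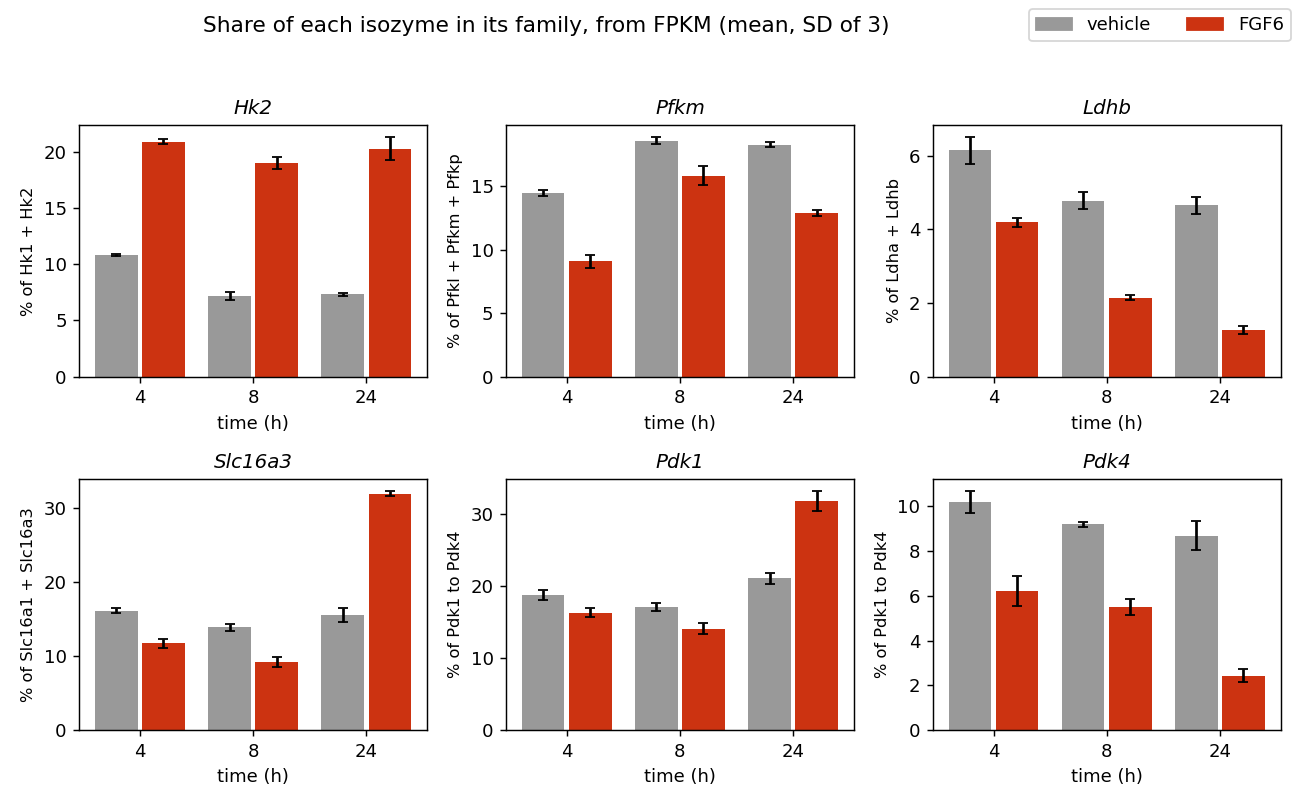
Share of 6 isozymes in the FPKM total of their family (vertical axes, percent, from 0) at 4, 8 and 24 h (horizontal axes), with vehicle in grey, FGF6 in red, bars at the mean and whiskers of 1 SD over 3 libraries. Hk2 takes a larger share with FGF6 at each time, Pfkm, Ldhb and Pdk4 a smaller one, and Slc16a3 and Pdk1 a smaller share at 4 and 8 h and a larger one at 24 h.

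The change of the FGF6 effect over time was tested as an interaction. Between 4 and 8 h the effect moved up for 8 of the 35 genes and down for 10, beside 15.5% and 15.1% of all genes. With library sizes alone 11 moved up and 8 down, beside 4764 of 15071 tested genes that moved in either direction. Between 8 and 24 h it moved up for 19 and down for 4, beside 22.6% and 22.5%. From 4 to 24 h it moved up for 24 and down for 4, beside 28.3% and 25.2%. At 24 h against 8 h, Pdk1 differed by 1.48 (SE 0.0682, adjusted p 3.67e-15), Slc2a3 by 0.96 (SE 0.122, adjusted p 4.34e-07), Pgk1 by 0.79 (SE 0.0777, adjusted p 6.28e-09), Pfkp by 0.78 (SE 0.0616, adjusted p 1.28e-10) and Ldha by 0.77 (SE 0.0399, adjusted p 3.3e-14). Hk1 (-0.29, SE 0.0473, adjusted p 1.66e-05), Hk2 (-0.21, SE 0.0547, adjusted p 0.00258), Rpia (-0.32, SE 0.0586, adjusted p 8.75e-05) and Pdk4 (-0.49, SE 0.133, adjusted p 0.00386) were the 4 that moved down. These comparisons share groups with those at single times.

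Vehicle cells were not constant either. From 4 to 8 h in vehicle, 10 of the 35 genes rose and 14 fell, beside 21.2% and 21.7% of all genes, and from 8 to 24 h 24 rose and 0 fell, beside 25.5% and 23.7%. No fall had an unadjusted p under 0.05 in edgeR (0 genes) and DESeq2 and limma-voom also called 0, while library sizes alone and upper-quartile factors called 1. Of the 10 genes that FGF6 raised at 4 h, most had lower values in vehicle at 8 h than at 4 h, with log2 changes of -0.67 for Slc2a1, -0.99 for Hk2, -0.62 for Pfkfb3, -0.51 for Rpia, -0.33 for Hk1, -0.20 for Slc16a1, -0.14 for Gpi1 and -0.12 for Tkt. Pgk1 and Eno1 went the other way, at 0.26 and 0.11. In FGF6 cells from 8 to 24 h, the log2 change was 2.27 for Slc16a3, 1.80 for Pdk1, 1.101 for Pgk1, 1.07 for Tpi1 and 1.00 for Ldha, and in vehicle cells 0.28, 0.32, 0.31, 0.36 and 0.23. Both arms moved up in this interval for these 5 genes, and the FGF6 arm moved further.

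Genes next to the pathway were taken from further lists, and at most 4 of each are named. Log2 fold changes are given at 4, 8 and 24 h in turn, and so are shares. Over all tested genes, 28.6%, 32.4% and 35.9% rose and 34.2%, 38.4% and 37.9% fell, with median log2 fold changes of -0.05, -0.05 and -0.02, and the shares of each list are to be read against these. Among 19 tested of 30 other transporters, isozymes and bisphosphate enzymes, 3 rose and 11 fell at 4 h, 3 rose and 14 fell at 8 h, and 4 rose and 12 fell at 24 h, with medians of -0.42, -0.46 and -0.65 on the log2 scale. The shares lower, 57.9%, 73.7% and 63.2%, were above those of all genes, and the shares higher, 15.8%, 15.8% and 21.1%, were below. Eno2, the neuronal enolase, had log2 fold changes of -0.89, -1.05 and -1.57, opposite to Eno1 at 8 and 24 h. Slc2a6 and Slc2a9, carriers of the SLC2A family, had -0.44, -0.34 and -1.48 and -0.41, -1.28 and -2.05. Emb, which encodes the chaperone embigin of monocarboxylate carriers, had -0.57, -1.68 and -1.07. All of these passed at each time except Slc2a9 at 4 h (adjusted p 0.0647).

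Around pyruvate, 3 of 11 tested genes rose and 4 fell at 4 h, 5 rose and 4 fell at 8 h, and 6 rose and 4 fell at 24 h, with medians of 0.0063, -0.02 and 0.17. At 4 h the shares, 27.3% higher and 36.4% lower, were near those of all genes, and later they were 45.5% and 54.5% higher and 36.4% lower at both times. Pcx, which encodes pyruvate carboxylase, the enzyme that feeds pyruvate into oxaloacetate, fell from 197 ± 7.24 CPM with vehicle to 27.7 ± 2.97 CPM with FGF6 at 24 h (mean ± SD, n = 3), with log2 fold changes of -1.11, -1.91 and -2.83. Pdp1, the phosphatase that reverses the kinases on pyruvate dehydrogenase, rose from 15.5 ± 0.215 to 47.3 ± 3.26 CPM at 4 h, with log2 fold changes of 1.61, 1.07 and 0.68, while Pdpr, its regulatory subunit, fell (-0.51, -0.67 and -0.79). Me2, a mitochondrial malic enzyme, had 0.01, 0.30 and 0.76, of which the 4 h value did not pass (adjusted p 0.891). Among 6 tested other pentose phosphate genes, 1, 1 and 2 rose and 3 fell at each time, with medians of -0.05, -0.31 and -0.65. These were 16.7%, 16.7% and 33.3% higher and 50% lower at each time, from few genes. Prps1, which makes phosphoribosyl pyrophosphate from ribose 5-phosphate, rose (0.54, 0.62 and 0.82), while its isozyme Prps2 (-0.42, -0.42 and -0.65), the endoplasmic reticulum dehydrogenase H6pd (-0.15, -0.20 and -0.65) and sedoheptulokinase Shpk (-1.62, -2.11 and -2.66) fell.

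Of 8 tested regulators of glucose use, 3 rose and 4 fell at 4 h, and 5 rose and 3 fell at 8 and at 24 h, with medians of 0.08, 0.19 and 0.24. The shares higher were 37.5%, 62.5% and 62.5%, and the shares lower 50%, 37.5% and 37.5%, those of 8 and 24 h near those of all genes. Txnip, which encodes an inhibitor of glucose uptake, fell from 73.8 ± 5.52 to 10.1 ± 1.79 CPM at 4 h. At 24 h the means were 134 ± 9.36 CPM with vehicle and 14.9 ± 0.941 CPM with FGF6, with log2 fold changes of -2.87, -2.12 and -3.17. Myc, a transcription factor known to drive glycolytic genes, rose from 77.9 ± 3.91 to 319 ± 9.15 CPM at 4 h, with 2.03, 2.31 and 1.74. Mlxip, a glucose-sensing transcription factor, had 0.82, 0.38 and 0.12, and Prkaa2, a catalytic subunit of AMP-activated kinase, had 0.30, 0.58 and 1.48, of which the 4 h value did not pass (adjusted p 0.0506). Of 22 genes of the hypoxia-inducible factor pathway outside glycolysis, 6 rose and 12 fell at 4 h, 5 rose and 15 fell at 8 h, and 13 rose and 6 fell at 24 h, and their median log2 fold change went from -0.15 and -0.43 to 0.20. The shares higher were 27.3%, 22.7% and 59.1%, and the shares lower 54.5%, 68.2% and 27.3%. Egln3 (1.04, 1.04 and 2.47) and Hilpda (0.92, 0.87 and 2.04), both known targets of that factor, rose most at 24 h, while Adm (-1.24, -2.02 and -3.19), also a known target, and Epas1 (-0.48, -1.23 and -1.78), which encodes the factor HIF2A, fell. Each of these 4 passed at every time.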

How the data were processed

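RNA sequencing was performed on 18 libraries of 1 immortalized mouse brown preadipocyte line, 3 for each of 6 groups, and groups were taken from the sample labels. The authors aligned reads with STAR to GRCm38 and deposited raw read counts per Ensembl gene from Subread featureCounts. Versions, strand setting and the handling of reads with several matches are not given in the sources used here. Totals of 24327816 to 33471980 counts per library limited the precision for genes with low counts.

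Symbols came from a GENCODE annotation of GRCm38 and promoters from RefSeq on GRCm38.p6. Genes with low counts were removed by filterByExpr, leaving 15071 of 48023, and TMM factors (0.951 to 1.05) were used. The quasi-likelihood test of edgeR 4.0.16 in R 4.3.3 was fitted to all 18 libraries without covariates, and p-values were adjusted over all tested genes (Benjamini-Hochberg). The common coefficient of variation was 0.0458. DESeq2 1.42.0 and limma-voom (limma 3.58.1) were alternatives, beside other scalings, filters, thresholds (FDR under 0.25, the study's own, and 1.5-fold), added gene copies, a replicate block and each library left out. The procedure was tested on simulated data. FPKM were computed from the counts and the principal transcript length, and shares over all annotated exons were added after seeing the data.

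All 35 genes are named. From each other list at most 4 genes are named, those with the largest absolute log2 fold change at any time that passed the test there, without overlap of the groups and with a mean of at least 1 CPM. A gene that this rule also names is not reported here. The members and lists were chosen with earlier results of these data known. An exact permutation test of 3 against 3 libraries cannot give a p below 0.1, so single-gene permutation tests were not used.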

Additional observations from a re-analysis of the deposited data

Results flagged for a closer look

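These genes stood out because the FGF6 effect differed between time points in the edgeR interaction test (adjusted p under 0.05), and the values are differences of log2 fold changes, later minus earlier. Between 4 and 8 h the effect moved up for 8 genes, Hk2 (0.35), Gpi1 (0.22), Pfkm (0.22), Eno1 (0.15), Pkm (0.16), Pgls (0.31), Pgd (0.23) and Tkt (0.21). It moved down for 10, Slc2a1 (-0.20), Hk1 (-0.13), Pfkl (-0.26), Pfkp (-0.24), Tpi1 (-0.11), Pgk1 (-0.25), Ldhb (-0.55), Pdk1 (-0.33), Pdk3 (-0.22) and Rpia (-0.23).

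Between 8 and 24 h it moved up for 19 genes, Slc2a1 (0.36), Slc2a3 (0.96), Gpi1 (0.33), Pfkl (0.58), Pfkm (0.29), Pfkp (0.78), Aldoa (0.25), Tpi1 (0.72), Pgk1 (0.79), Eno1 (0.60), Pkm (0.54), Ldha (0.77), Slc16a3 (1.99), Pdk1 (1.48), Pdk3 (0.42), Pdhb (0.32), G6pdx (0.34), Pgd (0.29) and Taldo1 (0.27). It moved down for 4, Hk1 (-0.29), Hk2 (-0.21), Pdk4 (-0.49) and Rpia (-0.32). Slc16a3 and Pdk1 had the largest differences among the 35 genes. Of these, Pfkl, Pfkp, Tpi1, Slc16a3 and Pdk1 were lower with FGF6 at 8 h and higher at 24 h, each past the test at both times. Groups of 3 libraries were too small for a test of outlying libraries.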

How the results depend on the processing

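Of 105 fold changes (35 genes at 3 times), 82 passed the test, and 32 of those kept call and direction under every alternative run. These runs include the 1.5-fold threshold, which removes any call of a smaller change whatever the processing. The 32 thus cannot show how many calls depend on the processing. Requiring 1.5-fold left 6 genes at 4 h (3 higher, 3 lower), 10 at 8 h (3 and 7), 16 at 24 h (11 and 5), 4 in vehicle from 4 to 8 h (1 and 3) and 0 from 8 to 24 h (0 higher). For the change of the effect it left 0 from 4 to 8 h (0 and 0), 8 from 8 to 24 h (8 and 0) and 8 from 4 to 24 h (7 and 1). Of all 15071 tested genes, this threshold left 1053 in vehicle from 4 to 8 h and 1628 from 8 to 24 h. For the change of the effect it left 1135, 2383 and 3355 of all tested genes in the same order. At an FDR under 0.25 the effect moved up for 13 genes from 4 to 8 h and down for 7 from 4 to 24 h, and 1 gene fell in vehicle from 8 to 24 h, as under library sizes alone and upper-quartile factors (1 each). At that FDR the effect changed in either direction for 7397 of 15071 tested genes from 4 to 8 h and 10459 from 4 to 24 h. Library sizes alone gave 6 higher and 21 lower at 4 h, beside 9737 of 15071 tested genes called in either direction.

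Signs turned in small values that mostly had not passed. Library sizes alone gave, at 4 h, Aldoa -0.085, Eno1 -0.013, Ldha -0.082, Pkm -0.070 and Tkt -0.017, and at 8 h Aldoa -0.039 and G6pdx -0.019. Upper-quartile factors gave Aldoa -0.041 at 4 h and -0.020 at 8 h, Ldha -0.037 and Pkm -0.026 at 4 h. At 4 h, Slc16a3 was 0.0042 with 10 counts required in every library, 0.00094 by DESeq2 and 0.014 with libraries of that time alone, where Slc2a3 was 0.014, 0.011 and 0.024. Taldo1 was 0.0081 at 4 h with libraries of that time alone, and at 8 h 0.0032, 0.023 and 0.019 under those 3 settings. The cause was not tested.

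With each library left out, called genes numbered 19 to 23 at 4 h (7 to 12 higher, 9 to 13 lower), 27 to 30 at 8 h (14 to 17 and 13), 30 to 31 at 24 h (23 to 24 and 7), 21 to 25 in vehicle from 4 to 8 h (8 to 12 and 12 to 15) and 21 to 23 from 8 to 24 h (21 to 23 and 0). Effect changes numbered 15 to 17 from 4 to 8 h (7 to 9 up, 7 to 10 down), 23 from 8 to 24 h (19 and 4) and 26 to 28 from 4 to 24 h (22 to 24 and 4). Signs turned at 4 h without FGF6 library 3 for Slc16a3 (values from -0.025 to 0.039 over the left-out libraries), Taldo1 (-0.055 to 0.017) and Pgd (-0.057 to 0.0087), without FGF6 library 2 or vehicle library 2 for Slc2a3 (-0.039 to 0.081) and without vehicle library 1 for Ldha (-0.0015 to 0.058). At 8 h Taldo1 ranged from -0.040 to 0.016 and turned without FGF6 library 2, FGF6 library 3 or vehicle library 1.

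Replicate numbers are shared across groups, but same-numbered libraries did not deviate together (correlations -0.0275 to 0.0486, 0 of 9 pairs over 0.1). With the replicate block, 22 genes were called at 4 h, 28 at 8 h and 31 at 24 h, against 23, 28 and 31 without it. The call lost was that of Tkt at 4 h (0.08, adjusted p 0.0537). With only the libraries of the time compared, the calls of Tpi1 (adjusted p 0.11), Mpc1 (adjusted p 0.063) and Pgls (adjusted p 0.0636) at 4 h and of Pdha1 at 24 h (adjusted p 0.055) were lost. At these depths levels near 1 CPM, such as Aldoc, have wide errors.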

Other observations

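Of 11 tested of 13 genes of glycogen turnover, 1 rose and 9 fell at 4 h, 2 rose and 9 fell at 8 h, and 4 rose and 7 fell at 24 h, with median log2 fold changes of -0.43, -0.50 and -0.22. The shares lower were 81.8%, 81.8% and 63.6%, beside 34.2%, 38.4% and 37.9% of all tested genes, and the shares higher 9.09%, 18.2% and 36.4%, beside 28.6%, 32.4% and 35.9%, so that at 24 h the share higher was near that of all genes. Ppp1r3c, which encodes a subunit that targets protein phosphatase 1 to glycogen and favours its synthesis, went from 2.18 ± 0.535 CPM with vehicle to 0.263 ± 0.0219 CPM with FGF6 at 4 h (mean ± SD, n = 3), with log2 fold changes of -3.02, -4.13 and -2.98 at 4, 8 and 24 h. At 8 h Ppp1r3c read 2.33 ± 0.231 CPM with vehicle and 0.120 ± 0.131 CPM with FGF6. In those FGF6 libraries 3 counts correspond to 0.0977 to 0.123 CPM, so the size of its 8 h fold change is uncertain. Ugp2, which makes UDP-glucose, fell (-0.83, -0.76 and -0.64). Pgm2, a phosphoglucomutase family member, rose (0.95, 0.59 and 0.64). The edgeR adjusted p was under 0.05 for these 3 genes at each time.

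In the hexosamine and glycerol branches, 3 of 8 genes rose and 2 fell at 4 h, 4 rose and 3 fell at 8 h, and 5 rose and 3 fell at 24 h, with medians of -0.0024, -0.04 and 0.20. The shares higher were 37.5%, 50% and 62.5%, and the shares lower, 25%, 37.5% and 37.5%, were near those of all genes at 8 and 24 h. Gfpt2, an isozyme of the first step of hexosamine synthesis, rose from 26.4 ± 1.31 to 79.5 ± 2.14 CPM at 4 h, with log2 fold changes of 1.59, 0.91 and 1.00. Gnpnat1, the acetyltransferase of the same branch, rose as well (0.60, 0.59 and 0.98). Gpd1l, a cytosolic glycerol 3-phosphate dehydrogenase, fell (-0.30, -0.30 and -0.47), and the mitochondrial Gpd2 had 0.06, 0.08 and 0.49, of which the 4 h value did not pass in edgeR (adjusted p 0.177). The part of the stromal marker sum, which was lower with FGF6 at each time, in these results was not tested.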
